A study of Mus musculus with 4 samples.

Results

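Group 2 innate lymphoid cells (ILC2) were examined in 4 single-cell RNA sequencing libraries of mouse tibial muscle. The cells were chosen by their raw counts of unique molecular identifiers (UMIs, each standing for 1 captured RNA molecule). A member had at least 1 UMI of Il1rl1, at least 1 UMI of Gata3 or Areg and at least 1 UMI of Ptprc, the pan-leukocyte marker. It had 0 UMIs of Cd3e, Cd3g, Cpa3, Csf1r, Foxp3 and Mcpt8, and mitochondrial genes gave no more than 10% of its UMIs. The rule found 97 of 59824 cells, with 24 in the Uninjured library, 28 at 1 dpi (day post injury), 35 at 3 dpi and 10 at 7 dpi.

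All 4 libraries came from Nse-Bmp4 mice on the C57BL/6 background, aged 6 to 8 weeks, in which the rat neuron specific enolase promoter drives a murine Bmp4 cDNA and muscle injury is followed by heterotopic ossification. Each library pooled 3 tibial muscles after collagenase digestion, either Uninjured or taken 1, 3 or 7 days after an injection of cardiotoxin, a snake venom toxin that lyses myofibres. Every group carried the transgene, and no library of wild type mice was analysed here. There was 1 library per time point, so differences over time have no replicate check, and their intervals cover counting error only. The deposited matrices held 112317902, 91146335, 116346301 and 129007669 UMIs from Uninjured to 7 dpi, and the median per deposited cell decreased from 8629 to 5561.5, 4214 and 3083 UMIs. Between 30 and 95 cell barcodes occurred in both libraries of any pair.

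ILC2 are tissue-resident lymphocytes that lack rearranged antigen receptors and respond to cytokines released by damaged stroma and epithelium. Il1rl1 encodes ST2, the receptor of the alarmin encoded by Il33. Gata3 encodes the transcription factor on which these cells depend, and Areg encodes amphiregulin, an epidermal growth factor receptor ligand with roles in tissue repair. Their textbook products are the type 2 cytokines encoded by Il5 and Il13, which sustain eosinophils and alternatively activated macrophages. In muscle, ST2 is also carried by regulatory T cells, and in many tissues by mast cells.

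The gene that anchors the gate, Il1rl1, lies on chromosome 1 at 40429570 to 40465415 on the plus strand (GRCm38, GENCODE M21) and has more than 1 start in RefSeq. The 250 bases before 2 of its starts are printed here because Gata3 is the other anchor of the gate and the first of them holds many strings that GATA factors recognise, and the same stretch is shown for Alox5 and Lpcat2, a pair of lipid mediator enzymes with higher counts in ILC2 than in NK and T cells. Capitals mark each match to the string GATAA or GATAG where A or T precedes it, on either strand (RefSeq, GRCm38.p6, written 5′ to 3′ on the strand of the gene). The first Il1rl1 stretch is chr1:40429320-40429569, the second chr1:40439379-40439628, that of Alox5 is chr6:116461179-116461428 on the minus strand and that of Lpcat2 is chr8:92855083-92855332 on the plus strand.
Il1rl1, upstream start: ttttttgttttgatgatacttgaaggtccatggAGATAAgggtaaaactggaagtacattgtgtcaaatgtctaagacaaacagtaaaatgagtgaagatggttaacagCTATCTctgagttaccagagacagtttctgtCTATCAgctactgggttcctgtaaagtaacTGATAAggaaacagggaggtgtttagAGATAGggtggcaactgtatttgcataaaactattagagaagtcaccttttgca
Il1rl1, downstream start: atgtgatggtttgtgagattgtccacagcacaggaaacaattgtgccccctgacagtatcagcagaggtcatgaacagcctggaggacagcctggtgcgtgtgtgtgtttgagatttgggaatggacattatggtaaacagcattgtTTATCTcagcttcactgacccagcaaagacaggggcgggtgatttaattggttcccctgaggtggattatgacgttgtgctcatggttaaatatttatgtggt
Alox5: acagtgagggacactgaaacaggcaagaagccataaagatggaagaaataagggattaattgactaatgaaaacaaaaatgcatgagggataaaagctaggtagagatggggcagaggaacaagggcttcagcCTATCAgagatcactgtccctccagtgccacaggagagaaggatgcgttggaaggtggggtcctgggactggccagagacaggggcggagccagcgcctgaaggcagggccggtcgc
Lpcat2: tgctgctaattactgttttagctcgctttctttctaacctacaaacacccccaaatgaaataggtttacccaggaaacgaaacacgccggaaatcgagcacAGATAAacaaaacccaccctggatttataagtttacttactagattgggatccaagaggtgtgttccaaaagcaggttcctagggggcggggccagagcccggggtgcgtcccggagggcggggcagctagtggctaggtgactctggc
The first Il1rl1 stretch held 5 matches, the first bases of which lay 217, 141, 110, 80 and 54 bases before the start, and each of the other 3 stretches held 1. Of 18 genes searched, among them the 9 named as highest and described below, 7 held a match in at least 1 of their stretches. Counted by stretch, 8 of 23 held a match. None was found for Slc7a8, Dach2, Ccdc184, Rnf128, Pcsk1, Gata3, Areg, Il7r, Ptpn13, Hilpda and Odc1. At least 1 match was present in 8718 of 32851 RefSeq promoters of this length (26.5%), and 5 or more in 14 (0.0426%). The cutoff of 5 equals the count of the first Il1rl1 stretch, which was printed for its many matches, so this share is description and not a test. A match is a string of letters and not a bound site, and counts per gene do not tell which start was used.

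The label was checked against 15 further ILC2 genes fixed as markers and not used by the gate (Rora, Il7r, Klrg1, Icos, Il2ra, Il17rb, Thy1, Id2, Nmur1, Il5, Il13, Hs3st1, Ptpn13, Ly6a and Cxcr6). A member had a UMI of a median of 6 of these genes in the Uninjured library, 8 at 1 dpi, 7 at 3 dpi and 5 at 7 dpi, against 2 in NK cells of every library and 2, 4, 4 and 2 in T cells. At least 3 of the 15 genes were detected in 83 of the 97 members, and none in 4. By library the share with at least 3 was 87.5%, 85.7%, 88.6% and 70.0% of members, 43.9%, 76.8%, 72.7% and 39.9% of T cells and 20.5% to 38.1% of NK cells, so at 1 and 3 dpi most T cells had this trait too. NK cells here were Ptprc positive cells with Klrb1c or Ncr1, and T cells those with Cd3e or Cd3g, each without the other pair and without Il1rl1, Foxp3, Cpa3, Csf1r and Mcpt8 (1733 and 2501 cells). Foxp3 positive regulatory T cells, 74 in all, were thus not among the T cells. Rora, the transcription factor that with Gata3 specifies ILC2, was detected in 20 of 24, 22 of 28, 28 of 35 and 4 of 10 members. In NK cells Rora was detected in 10.4% to 15.6% of cells per library and in T cells in 21.96% to 47.9%.

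T cell receptor transcripts were not uniformly absent. Trbc1 or Trbc2 (constant regions of the beta chain) had a UMI in 19 of 24, 17 of 28, 19 of 35 and 8 of 10 members, and NK cells had them in 62.0% of Uninjured cells and 78.4% at 1 dpi. Trac, the constant region of the alpha chain, or Cd3d had a UMI in 0, 3, 1 and 0 members. In T cells the shares were 95.8%, 93.7%, 84.3% and 76.2% from Uninjured to 7 dpi. In NK cells, also gated without Cd3e and Cd3g, they were 7.36% to 9.48% per library. The members thus carried transcripts of the beta chain locus and few of the alpha chain or Cd3d. Because the gate removes cells with Cd3e or Cd3g, the low counts of Trac and Cd3d are not independent of it. Of the 8 genes listed for NK cells and ILC1, Tbx21 had 1 UMI in all 97 members, Klra8 4, Klrb1c 9, Ncr1 10 and Prf1 12. Eomes had 20 UMIs in 7 members (7.22%, against 54.1% of NK and 9.40% of T cells), Xcl1 60 in 3 and Gzma 107 in 10 (10.3%, against 82.5% and 6.64%). A minority of members thus carried transcripts of this list, at shares near those of T cells for Eomes and Gzma.

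**Figure D1:**
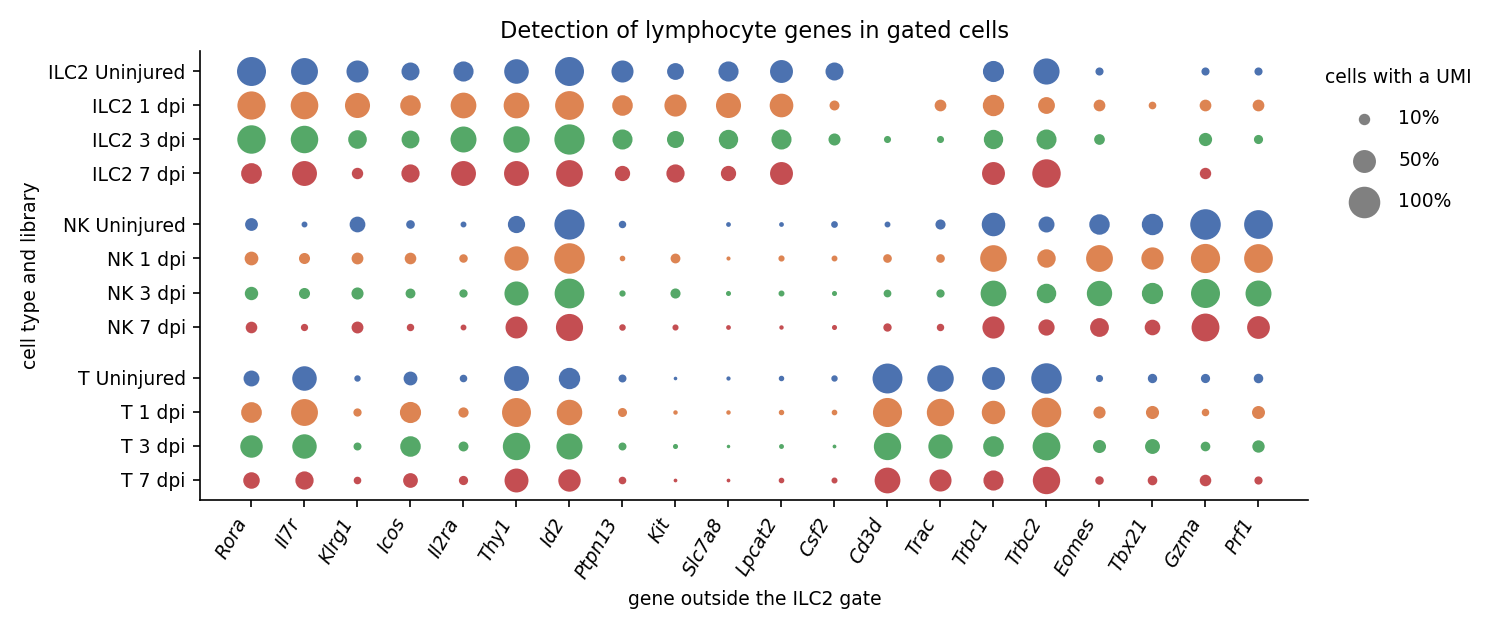
Share of cells with at least 1 UMI (dot area) of 20 genes outside the ILC2 gate, by cell type and library. Rora, Il7r and Il2ra form large dots in the ILC2 rows. Il7r and, to a lesser degree, Rora are also detected in the T cell rows (53.9% and 36.0% of all T cells). Cd3d and Trac form large dots in the T cell rows, and Eomes, Gzma and Prf1 in the NK rows, while Trbc1 and Trbc2 are detected in all 3 cell types.

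A subset of members also carried RNA of other cells. At least 10 UMIs of 1 or more of Col1a1 and Dcn (fibroblast matrix), Lyz2 (myeloid cells), S100a9 (neutrophils) and Cd74 (antigen presentation) were present in 26 members, 9 of them Uninjured, 5 at 1 dpi, 9 at 3 dpi and 3 at 7 dpi. Col1a1 and Dcn reached 10 UMIs in 16 members each, Cd74 in 11, Lyz2 in 4 and S100a9 in 2. These members were larger, with a median of 15929 UMIs against 3835 in the other Uninjured members, and the single largest cell, with 74711 UMIs, gave 27.1% of the Uninjured ILC2 sum. The 71 members with under 10 UMIs of each of these 5 genes, hereafter the under-10 subset (15, 23, 26 and 7 cells), had at least 3 of the 15 further ILC2 genes in 68 cells. Because that subset was chosen on those 5 genes after their values were seen, nothing is read from the 5 genes or from genes that accompany them. At 1 dpi, 2 members carried Car1, a carbonic anhydrase of the erythroid lineage, with Gata2 and without Rora. The larger of them, with 115 UMIs of Car1 and 32817 in all, gave 15.5% of the 1 dpi sum. Both belong to the under-10 subset. Leaving out the 7.5% of cells with the highest doublet scores of each library kept 17, 26, 32 and 10 members. Results that rest on summed counts are given with the under-10 subset where it changes them, and the part of mixed droplets in the result was not tested.

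**Figure D2:**
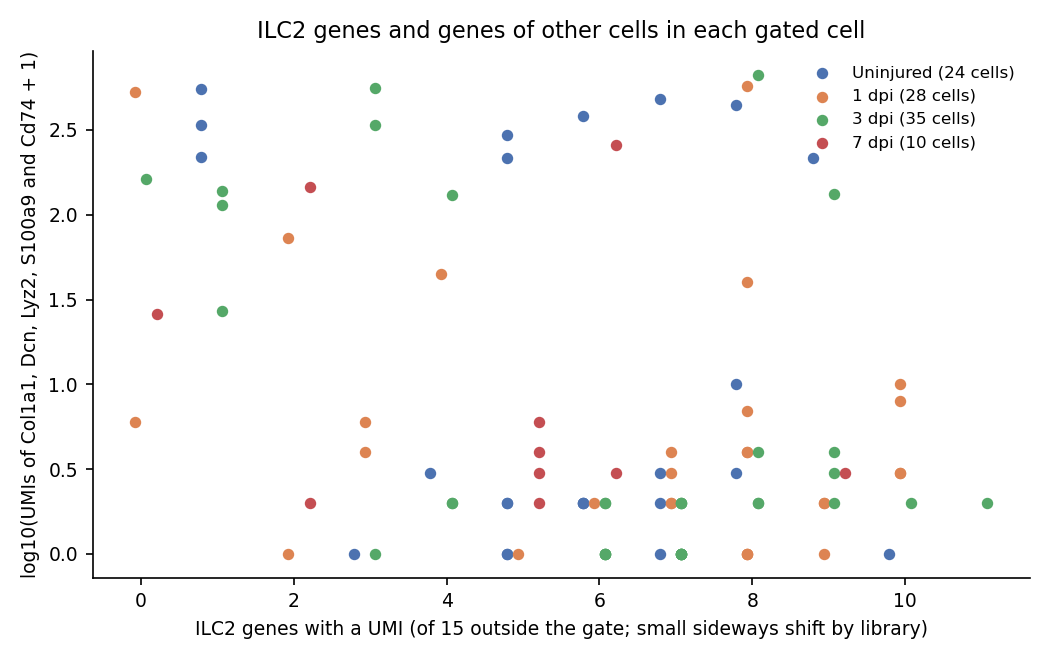
Each point is 1 gated cell, placed by how many of 15 ILC2 genes outside the gate it carried (x) and by the log10 of its summed UMIs of Col1a1, Dcn, Lyz2, S100a9 and Cd74 plus 1 (y), coloured by library. Most points lie below 1 on the y axis, and a separate group of large sums spans 0 to 9 of the ILC2 genes, while points at 10 and 11 genes have small sums.

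The values that chose the cells are given as description. Il1rl1 had exactly 1 UMI in 38 members and 2 or more in 59, with a maximum of 22 in a cell at 1 dpi. Gata3 was detected in 16 of 24, 25 of 28, 31 of 35 and 9 of 10 members, and Areg in 21, 12, 16 and 8. The gate accepts either gene, so a member without Gata3 had to have Areg. Just outside the gate were 268 Il1rl1 positive cells without Gata3 and Areg, 34 without Ptprc, 18 with a single UMI of an excluded gene, 2 above the mitochondrial limit and 32 cells with Gata3 and Areg but no Il1rl1.

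ILC2 were rare at every time point and rarest at 7 dpi. They made up 0.203% of Uninjured cells (exact 95% binomial interval 0.130% to 0.302%), 0.258% at 1 dpi (0.172% to 0.373%), 0.248% at 3 dpi (0.173% to 0.345%) and 0.0434% at 7 dpi (0.0208% to 0.0799%). The first 3 intervals overlapped, and the 7 dpi interval lay below all of them. Of Ptprc positive cells, ILC2 made up 1.66%, 0.492%, 0.669% and 0.279%, over 1443, 5696, 5230 and 3579 such cells. The 7 dpi interval on this denominator (0.134% to 0.513%) overlapped those at 1 dpi (0.327% to 0.710%) and 3 dpi (0.467% to 0.930%). The Uninjured interval (1.07% to 2.47%) was the highest, and the counts of ILC2 behind it differed little from those at 1 dpi, 24 and 28 cells. Of ILC2, NK, T and regulatory T cells together the shares were 4.55%, 2.54%, 2.14% and 0.876%. NK cells numbered 121, 422, 701 and 489 and T cells 378, 615, 879 and 629 in the same order.

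These shares changed once cells were thinned. The gate needs several UMIs, and the median member had 5433.5, 5122.5, 3383 and 2759.5 UMIs from Uninjured to 7 dpi. Thinning to 2000 UMIs could use only cells with that many, which left 11271, 9885, 11073 and 16120 cells as the denominators. Of these, 7, 17, 28 and 5 cells met the rule, or 0.0621%, 0.172%, 0.253% and 0.0310%. Among the cells that met it, 6, 15, 26 and 3 were members of the main count. The Uninjured interval (0.0250% to 0.128%) then lay below that at 3 dpi (0.168% to 0.365%) and overlapped that at 7 dpi (0.0101% to 0.0724%). The under-10 subset gave 0.127%, 0.212%, 0.184% and 0.0304%. The 7 dpi library had the lowest share of all cells and the Uninjured library the next lowest under each of these 3 counts, while the distance between the 2 depended on the count used.

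**Figure D3:**
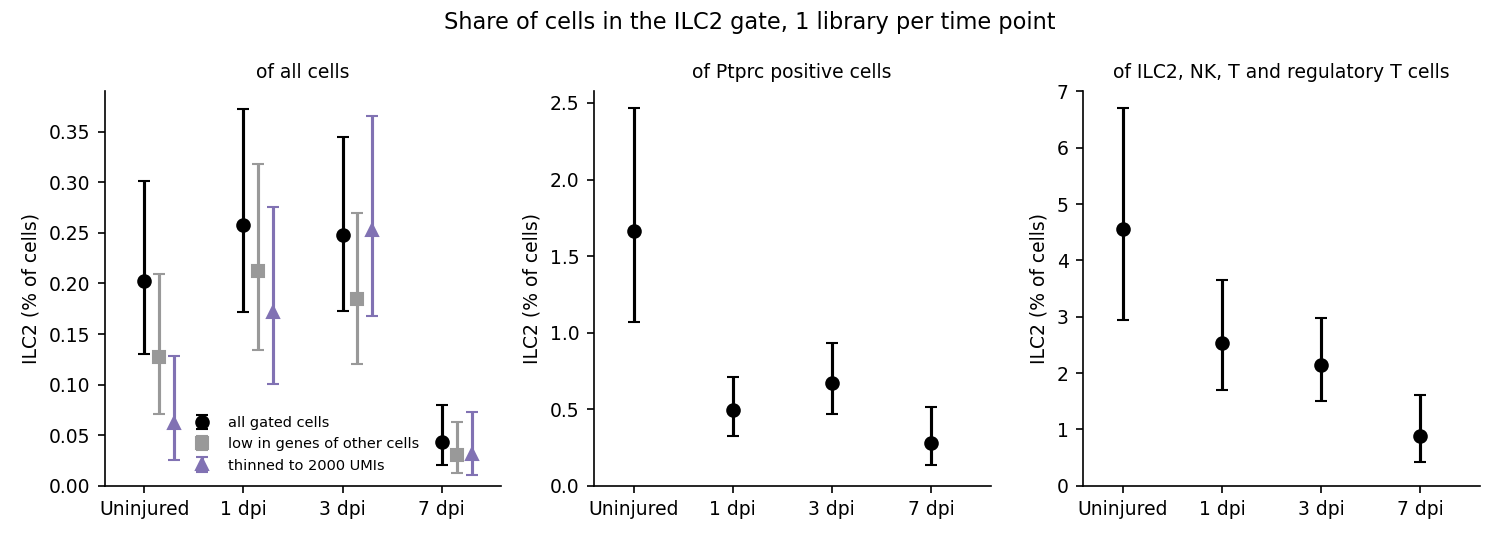
ILC2 as a percentage of all cells, of Ptprc positive cells and of lymphocytes (y axes) in the 4 libraries (x axes), with exact 95% binomial intervals. The 7 dpi point is the lowest in each panel for all gated cells, and in the left panel the Uninjured point lies below those at 1 and 3 dpi, by more once cells are thinned or members with RNA of other cells are left out.

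ILC2 were next compared with the gated NK and T cells of the same libraries. Il1rl1 positive cells, Foxp3 positive regulatory T cells and Cpa3 positive cells were left out of both comparison groups. The genes called below are therefore not compared with those cells. UMIs were summed per cell type and library, and edgeR's quasi-likelihood test was run with the library as a block over 10715 genes. In ILC2, 387 genes (3.61%) were higher and 539 (5.03%) lower than in NK cells at an adjusted p under 0.05, and 282 (2.63%) were higher and 536 (5.00%) lower than in T cells. Both comparisons use the same ILC2 sums. Without the library block 134 and 237 genes were called against NK cells and 80 and 187 against T cells, and without the 3 dpi library 182 and 328, and 137 and 283. Without the 1 dpi library the lower genes numbered 315 and 287. The genes of the gates were left out of all counts of called genes. The median log2 fold change of all genes tested was -0.08 against NK cells and -0.10 against T cells.

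Among the genes named as highest against both cell types, 9 are described here, and they fall into a few kinds by what they encode. Slc7a8, an amino acid transporter, reached 50.7, 235, 100.4 and 64.7 CPM (a gene's UMIs relative to all UMIs of the summed cells) in the ILC2 sums from Uninjured to 7 dpi. It was 5.76, 1.18, 1.95 and 2.14 CPM in NK cells and at most 1.87 CPM in T cells, so that all 4 ILC2 values lay above all NK and T values. The log2 fold change of Slc7a8 was 5.72 ± 0.48 (SE, adjusted p = 1.37e-06) against NK cells and 6.47 ± 0.48 (adjusted p = 5.95e-07) against T cells. Slc7a8 was also present cell by cell, with a UMI in 40 of 97 members (41.2%), 14 of 1733 NK cells and 10 of 2501 T cells, and in 35 of the 71 under-10 members. By library it was detected in 9 of 24, 17 of 28, 12 of 35 and 2 of 10 members, and the 4 intervals overlapped.

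A pair of enzymes of lipid mediators was among the same genes. Alox5, the lipoxygenase that starts leukotriene synthesis, reached 25.4, 94.2, 39.3 and 43.2 CPM against at most 3.06 CPM in NK and T cells, and was detected in 21 of 97 ILC2, 11 of 1733 NK cells and 12 of 2501 T cells. Lpcat2, an acyltransferase that makes platelet-activating factor, reached 58.0, 137, 69.9 and 194 CPM and was detected in 12 of 24, 15 of 28, 13 of 35 and 5 of 10 members, with log2 fold changes of 5.02 ± 0.37 and 4.77 ± 0.35. Thus both lipid mediator enzymes were higher in ILC2 in 4 of 4 libraries.

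Rnf128, the E3 ubiquitin ligase known as GRAIL, reached 25.4, 170, 83.0 and 43.2 CPM in ILC2 and had log2 fold changes of 4.55 ± 0.38 against NK cells and 5.63 ± 0.40 against T cells. Dach2, a transcriptional cofactor, had 2, 18, 16 and 1 UMIs in the ILC2 sums and at most 3 in any NK or T sum, and was detected in 22 members. Cntn1, a neuronal adhesion molecule, had 3, 13, 7 and 1 UMIs and Pcsk1, a proprotein convertase that processes peptide hormones, 2, 6, 4 and 1. Ccdc184 was detected in 32 members, with log2 fold changes of 5.29 ± 0.65 and 6.49 ± 0.70, and the olfactory receptor gene Olfr1259 in 15 members, 1 NK cell and 6 T cells. Every one of these 9 genes was higher in ILC2 in 4 of 4 libraries of both comparisons. The UMIs behind Cntn1, Olfr1259 and Pcsk1 were few, 24, 19 and 13 over all members.

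**Figure D4:**
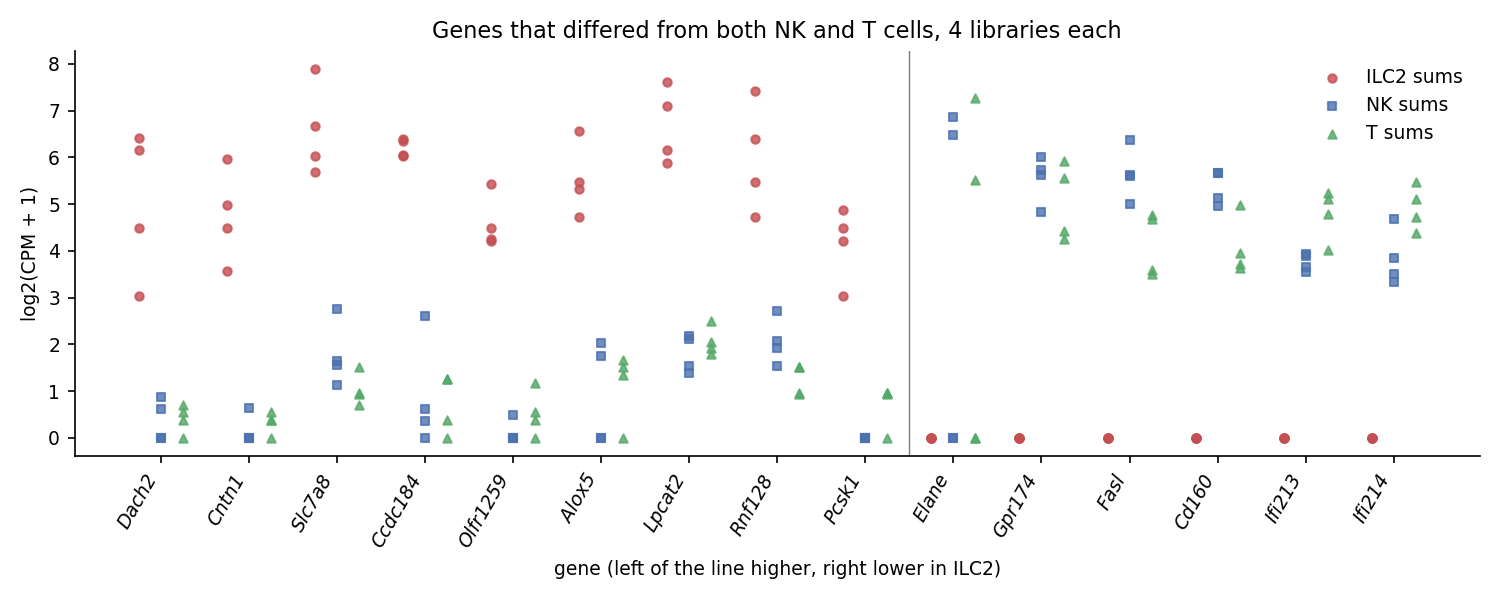
log2(CPM + 1) of 15 named genes (y) in the summed ILC2, NK and T cells of each of the 4 libraries (1 point per library). For the 9 genes left of the line every ILC2 point lies above every NK and T point, and for the 6 on the right every ILC2 point is at 0.

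The 6 genes named as lowest had no UMI in any ILC2 sum. Fasl (the death receptor ligand of cytotoxic lymphocytes) had 459 UMIs in NK and 210 in T cells, Cd160 (an NK and CD8 T cell receptor) 317 and 173, and Gpr174 (a lysophosphatidylserine receptor) 423 and 424. Bounds were set against 3 UMIs over the summed ILC2, a floor chosen for a count of 0, and an exact interval would allow slightly more. On that floor Fasl was at least 13.7-fold lower than in NK cells and at least 4.98-fold lower than in T cells. Cd160 was at least 9.47-fold and 4.10-fold lower and Gpr174 at least 12.6-fold and 10.1-fold lower. Ifi213 and Ifi214, interferon-inducible genes of 1 cluster on chromosome 1, were at least 3.35-fold and 3.70-fold lower than in NK cells. Their calls against NK cells were lost in Rora positive members without Col1a1, Lyz2 and Cd79a, and that of Ifi214 also without the 1 dpi library. The call of Cd160 against T cells was lost in those Rora positive members and without the Uninjured library. By the same 3 counts, 0 of 97 cells allows a share of up to 3.09%, and slightly more by the exact interval. Elane, a neutrophil granule protease, was called as well, but was lower in 2 of 4 libraries only, and the sign of its fold change turned with DESeq2.

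The 15 further ILC2 genes, 11 of which were tested, were mostly higher than in NK cells and less clearly set apart from T cells. 8 were higher and none lower than in NK cells, with a median log2 fold change of 2.78, while 5 were higher and 1 lower than in T cells, with a median of 0.29. Il2ra, the high affinity chain of the Il2 receptor and also a gene of regulatory T cells, which the T cell gate left out, was higher than in both, by 4.59 ± 0.28 and 3.02 ± 0.24, and Ptpn13 by 3.90 ± 0.43 and 2.69 ± 0.38. Il7r and Cxcr6 were higher than in NK cells, by 3.41 ± 0.27 and 3.66 ± 0.48, and did not pass the test against T cells (-0.34 ± 0.24 and -0.37 ± 0.37). Klrg1, an inhibitory receptor of mature ILC2, passed against T cells (2.71 ± 0.53, adjusted p = 0.00393) and not against NK cells (1.30 ± 0.49, adjusted p = 0.124). Thy1 was lower than in T cells, with a log2 fold change of -1.24 ± 0.21. Values given in this form below are log2 fold changes ± SE, against NK cells and then against T cells. Of the lists of other lymphocytes, all 6 tested genes of NK cells and ILC1 were lower than in NK cells and all 9 tested T cell genes lower than in T cells, directions that the gates largely fix.

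Kit, the stem cell factor receptor known from mast cells, ILC3 and some ILC2, stood out among the ILC3 genes. It had 25.4, 198, 61.1 and 108 CPM in ILC2, at most 19.7 in NK cells and at most 4.65 in T cells, with log2 fold changes of 2.82 ± 0.38 and 5.11 ± 0.44. Kit was detected in 6 of 24, 13 of 28, 9 of 35 and 3 of 10 members, and in 14 of 19 mast cells, which were gated by Cpa3 and Ms4a2. No member carried Cpa3, since the gate removed it. The large cell with Car1 held 11 of the 42 UMIs of Kit at 1 dpi, and in Rora positive members without Col1a1, Lyz2 and Cd79a, a choice that leaves that cell out, the log2 fold changes of Kit were 3.49 and 5.85. Of the 31 Kit positive members 16 also carried Klrg1. The other genes of the ILC3 list were at or near 0, and Il17a, with 0 UMIs in every ILC2 library, was called lower than in T cells.

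Type 2 cytokine transcripts were almost not detected. Il5 had 2 UMIs, in 1 Uninjured cell and 1 cell at 1 dpi, Il13 and Il4 had 1 each, and Il9 and Il10 had 0 in 97 cells, which allows up to 3.09% of cells with a UMI by 3 counts of the total, and up to 3.73% by the exact interval. Of the 10 tested genes of the cytokine and growth factor list, 4 were higher and 1 lower than in NK cells, and likewise against T cells, with medians of 0.80 and 1.22. Csf2, the granulocyte-macrophage growth factor, was higher than in NK cells by 4.21 ± 0.50 and than in T cells by 3.26 ± 0.44, in 3 of 4 libraries. It had been picked as a marker of ILC2 with earlier results of these data known, so it is not independent evidence of its own direction. Its UMIs sat in few cells, 50 of the 62 Uninjured ones in a single cell, and it was detected in 7 of 24, 2 of 28, 4 of 35 and 0 of 10 members. Tnfsf11 (RANKL, the osteoclast differentiation ligand) had 32.6, 118, 56.8 and 21.6 CPM in ILC2, with log2 fold changes of 5.46 ± 0.52 against NK cells, where it was at most 2.68 CPM, and 1.84 ± 0.37 against T cells, where it was 9.83 to 21.2 CPM. Lif (leukaemia inhibitory factor) was higher than in both (2.92 ± 0.50 and 2.54 ± 0.47), and Tnf was lower than in both (-1.27 ± 0.37 and -1.64 ± 0.35).

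Among 26 tested receptors, 9 were higher and 4 lower than in NK cells (median 0.61), and 5 were higher and 4 lower than in T cells (median -0.11). Those higher than in both included receptors of lipid mediators, Ptgir (the prostacyclin receptor, 4.72 ± 0.60 and 3.51 ± 0.51) and Cysltr1 (a cysteinyl leukotriene receptor, 5.28 ± 0.58 and 3.20 ± 0.47). Ptgir was detected in 27 and Cysltr1 in 21 of the 97 members. Ptgdr2, the prostaglandin D2 receptor CRTH2, had 0 UMIs in all 97. Ramp1, a subunit of the receptor for the neuropeptide CGRP, was higher than in NK cells (1.81 ± 0.23, adjusted p = 6.74e-05) and not called against T cells (0.58 ± 0.21, adjusted p = 0.116), and was found in 50 members, while Calcrl, its partner, was found in 13. Il18r1 and Il2rb were lower than in both, Il18r1 with values of -3.63 ± 0.45 and -3.15 ± 0.46. Bmpr1a and Bmpr2, receptors for the transgene product, had 23 and 30 UMIs in all and were not called in either comparison (Bmpr1a 1.00 ± 0.33 and 0.55 ± 0.31, Bmpr2 0.74 ± 0.39 and 0.56 ± 0.38).

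Of 21 tested transcription factors, 5 were higher and 1 lower than in NK cells and 3 higher and 4 lower than in T cells (medians -0.17 and -0.11). Bcl11b, needed for ILC2 identity and for T cell development, was 87.0, 184, 149 and 129 CPM in ILC2, above NK cells (3.90 ± 0.29) and below T cells (-1.10 ± 0.23). Tcf7 was lower than in both (-2.39 ± 0.51 and -4.06 ± 0.46). Nfkb1, a subunit of NF-kappaB, was higher than in both, by 1.45 ± 0.27 and 1.76 ± 0.28, with 254, 1252, 808 and 216 CPM. In the list of NF-kappaB feedback genes, Nfkbia, Nfkbiz, Tnfaip3, Birc3 and Nfkb1 were higher than in NK and in T cells, 5 of 11 in each, and none was lower (medians 0.88 and 0.61). Nfkbia, the inhibitor that NF-kappaB induces, was higher by 1.52 ± 0.16 and 1.17 ± 0.16. Of 14 immediate early and heat shock genes, 5 were higher and 2 lower than in NK cells and 6 higher and 1 lower than in T cells, Fos by 1.013 ± 0.14 and 1.04 ± 0.14.

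Genes of migration and residence differed in both directions. S1pr1 and Ccr7, which direct exit from tissue, were lower than in T cells, S1pr1 with -4.63 ± 0.44 and Ccr7 with -6.05 ± 0.94. Against NK cells neither was called, S1pr1 with -1.54 ± 0.61 and Ccr7 with -2.60 ± 1.33. Cxcr3 was lower than in both (-3.58 ± 0.58 and -3.86 ± 0.56), and so was the chemokine Ccl5 (-4.42 ± 0.57 and -3.04 ± 0.56). Cxcl2, a neutrophil attractant, was higher than in both, by 2.67 ± 0.40 and 2.74 ± 0.40, in 3 of 4 libraries. Rgs2, a G protein regulator, was higher by 1.62 ± 0.20 and 2.45 ± 0.20. By list, 3 chemokine genes were higher and 6 lower of 15 tested against NK cells and 2 and 6 against T cells, and 3 residency genes were higher and 3 lower of 11 against NK cells and 2 and 5 against T cells. The chemokine list had medians of -1.54 and -0.63.

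In a list of metabolic enzymes, transporters and receptors, 4 of 10 tested genes were higher than in NK cells and 4 higher than in T cells, Alox5 and Hilpda among them in each, with no gene lower and medians of 1.03 and 0.90. Hilpda, which blocks lipolysis at lipid droplets and responds to hypoxia, was higher by 3.01 ± 0.29 and 2.65 ± 0.27. Odc1, the enzyme that commits ornithine to polyamine synthesis, was not called (0.67 ± 0.21 and -0.19 ± 0.20). For cell cycle genes, 1 of 15 was lower than in NK cells and 1 higher than in T cells. Mki67 or Top2a had a UMI in 20.8%, 17.9%, 17.1% and 20% of members, and in NK cells in 9.09%, 13.98%, 31.8% and 21.3%. Of 12 interferon-induced genes 2 were higher than in NK cells, and 1 was higher and 2 lower than in T cells.

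Genes of other cells were called in places. Cd209a (5.24 ± 0.65), H2-Aa (2.72 ± 0.68) and Cd74 (2.46 ± 0.74) were higher than in NK cells in 3 of 4 libraries, Cd209a was also higher than in T cells (3.51 ± 0.56), Cd68 was higher than in both (1.95 ± 0.54 and 1.88 ± 0.52) and Col1a1 was higher than in NK cells by 1.26 ± 0.30. Of the whole dendritic cell list 3 of 6 tested genes were higher and 1 lower than in NK cells, of the macrophage list 1 and 1 of 4, of the mesenchymal list 1 and 0 of 5 and of the neutrophil list none of 4. Against T cells 1 gene of the dendritic cell list was higher and none lower, 1 and 1 of the macrophage list, and none of the mesenchymal and neutrophil lists. In the Uninjured ILC2 sum the dendritic cell list held 1777 UMIs, 914 of them Cd74, in 8 of 24 cells, and the mesenchymal list 3178, 1416 of them Dcn, in 21 of 24. Csf1r was at 0 by the gate. In the under-10 subset Cd74 and Col1a1 turned lower than in NK cells, as that choice of cells fixes, whereas the log2 fold changes of Alox5 were 5.62 against NK cells and 5.78 against T cells.

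Over the time course, shares of members with a UMI are given first, since few cells held most UMIs of many genes. Calca, which encodes the neuropeptide CGRP and calcitonin, was detected in 1 of 24 Uninjured members, 11 of 28 at 1 dpi, 9 of 35 at 3 dpi and 0 of 10 at 7 dpi. The shares were 4.17% (exact 95% interval 0.105% to 21.1%), 39.3% (21.5% to 59.4%), 25.7% (12.5% to 43.3%) and 0% (up to 30.9%). The 1 dpi interval began just above the end of the Uninjured interval, and the others overlapped. Calca had 1, 59, 34 and 0 UMIs, with at most 13 in a cell at 1 dpi and 14 at 3 dpi. In the under-10 subset Calca was found in 0 of 15, 11 of 23, 8 of 26 and 0 of 7 cells.

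NK cells had Calca in 12 of 1733 cells (0.692%), T cells in 10 of 2501 (0.400%), regulatory T cells in 1 of 74, and macrophages and endothelial cells in none of 984 and 350. Mesenchymal cells had it in 84 of 21884 (0.384%), and at 1 dpi it was found in 2 of 422 NK and 3 of 615 T cells. Members with Calca were no deeper than those without at 1 dpi (median 4875 against 5370 UMIs) and at 3 dpi (3234 against 3432). Calca was not among the genes tested against NK and T cells, because it did not pass edgeR's filter on low counts. Of the 21 Calca positive members 15 also had Areg, 13 had Klrg1 and 12 had Ramp1, the CGRP receptor subunit. Of all 97 members 57 had Areg, 40 had Klrg1 and 50 had Ramp1, so the share with Ramp1 was similar in both. At 3 dpi 8 of the 9 Calca positive members had Areg, which was detected in 16 of 35 members in all. At 1 dpi 6 of 11 had it, against 12 of 28 members in all. Areg is a gene of the gate, so its counts are description only.

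**Figure D5:**
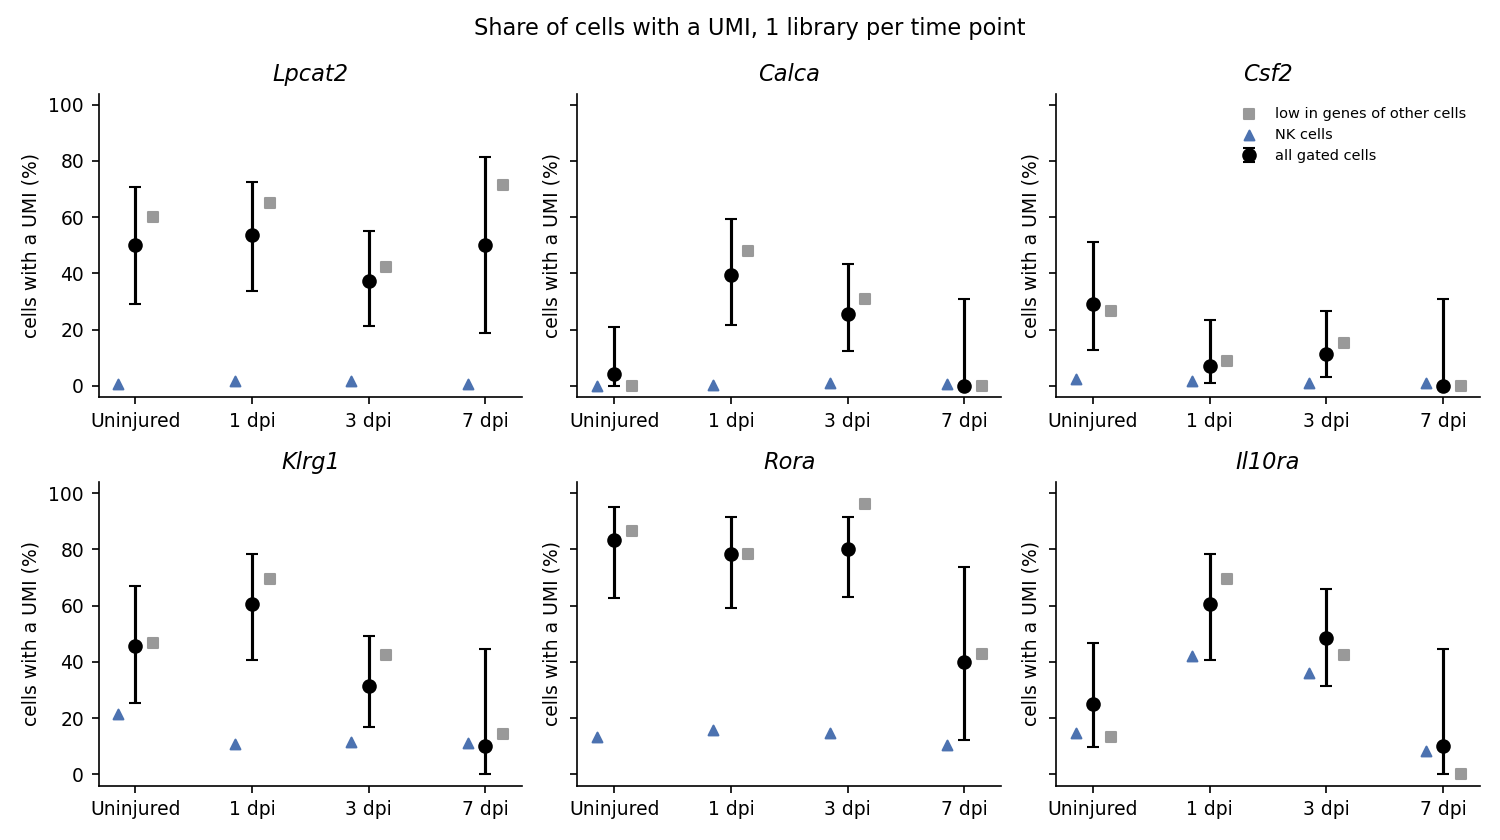
Share of cells with a UMI (y) in the 4 libraries (x) for 6 genes, with exact 95% binomial intervals for all gated ILC2, squares for members with under 10 UMIs of genes of other cells and triangles for NK cells. Lpcat2 stays between 37.1% and 53.6%, Calca is highest at 1 dpi and not detected at 7 dpi, and Rora and Klrg1 are lowest at 7 dpi.

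Il10ra, the receptor chain for the anti-inflammatory cytokine encoded by Il10, was detected in 6 of 24, 17 of 28, 17 of 35 and 1 of 10 members, with 6, 62, 24 and 1 UMIs. From Uninjured to 1 dpi its CPM was 13.4-fold higher (counting interval 5.83 to 38.0), against 3.04-fold in NK cells (1.89 to 5.21). The log2 ratio of Il10ra, 3.75 over all members, was 3.57 in the under-10 subset, on 2 and 61 UMIs, and 3.24 with cells thinned to 1000 UMIs. Vps37b, a subunit of the ESCRT-I sorting complex, was detected in 8 of 24, 24 of 28, 24 of 35 and 2 of 10 members, and its CPM was 18.7-fold higher at 1 dpi (10.4 to 37.0), against 1.897-fold in NK cells. The log2 ratio of Vps37b, 4.23 over all members, was 2.61 in the under-10 subset and 2.24 thinned. From 3 to 7 dpi Vps37b was at 0.140 of its CPM (0.0284 to 0.420), and at 0.447 in NK cells, and the log2 ratio of -2.84 was -3.52 in the subset, on 93 and 2 UMIs, and -2.89 thinned. Il10ra and Vps37b were thus found in most members at 1 dpi and in few at 7 dpi, where only 10 cells were available.

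For Il2ra, Cxcr6 and Klrg1 the exact intervals of the 4 libraries overlapped. Il2ra was detected in 9 of 24, 18 of 28, 23 of 35 and 6 of 10 members, Cxcr6 in 5, 15, 9 and 4, and Klrg1 in 11, 17, 11 and 1. Of the 10 further ILC2 genes with enough UMIs, 8 were at least 2-fold higher and none lower in CPM from Uninjured to 1 dpi, where 19.8% of 2496 genes were higher and 20.2% lower by that size. Within the under-10 subset 2 of 10 were higher and none lower, where 17.1% of 1094 genes were higher and 6.76% lower, so the list was then near the background. From 1 to 3 dpi none of 10 was higher and 2 were lower, where 12.5% of 2330 genes were higher and 8.28% lower. From 3 to 7 dpi none of 6 was higher and 2 were lower, where 5.56% of 1348 genes were higher and 16.5% lower.

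Most of the remaining genes with the largest CPM ratios between successive libraries were genes of other cell types. Cd74 had 914, 4, 479 and 85 UMIs from Uninjured to 7 dpi, and H2-Aa 363, 6, 207 and 33. In the under-10 subset Cd74 had 2, 3 and 1 UMIs in the first 3 libraries, which the choice of that subset sets. Timp1, Fn1, Postn, Cxcl1 and Prg4, known from fibroblasts and injured stroma, were others, Timp1 with 380, 5, 269 and 7 UMIs, and nothing is read from their counts in that subset. Gzma, the NK granzyme, went from 4 to 49 UMIs at 1 dpi, in 1 and then 3 members. A single cell at 1 dpi held 126 of 128 UMIs of Fmod, and the cell rich in Car1 held 29 of 62 of Cdk6. Ccrl2, a receptor for chemerin, was detected in 31 of 97 members and was at 0.155 of its 1 dpi CPM at 3 dpi (0.0632 to 0.330), against 0.843 in NK cells, and Cxcr6 was at 0.227 (0.106 to 0.445), against 0.601. Their log2 ratios of -2.69 and -2.14 were -1.98 and -1.08 in the under-10 subset and -1.06 and -0.51 thinned. Rrad, a small GTPase, was 13.5-fold higher at 1 dpi (5.44 to 43.4), with UMIs in 3 of 24 and 14 of 28 members, and its log2 ratio of 3.76 was 3.09 in the under-10 subset, on 2 and 44 UMIs, and 2.53 in Rora positive members. From 3 to 7 dpi Psmb8, an immunoproteasome subunit, was 2.76-fold higher (1.49 to 4.98), against 1.04-fold in NK cells, and Ppp1r14b and Snrpf were 3.67-fold and 2.80-fold higher, against 2.32-fold and 1.47-fold. Each of these rests on the 10 cells at 7 dpi, with 19, 26 and 17 UMIs. The log2 ratio of Psmb8, 1.47, was 1.08 in the under-10 subset and 0.81 thinned, and those of Ppp1r14b and Snrpf, 1.88 and 1.49, were 2.87 and 2.31 in the subset and 2.54 and 4.13 thinned. Itm2a and Aspn were 3.74-fold and 2.74-fold higher in CPM, on 28 and 36 UMIs at 7 dpi, against 6.64-fold and 5.16-fold in NK cells. In the under-10 subset Itm2a had 0 UMIs in both libraries and Aspn had 2 at 3 dpi and 1 at 7 dpi. No ratio was computed there for either gene. Apoe had 57 and 5 UMIs at 1 and 3 dpi, and the metallothionein genes Mt1 and Mt2 had 170 and 139 UMIs at 3 dpi and 5 and 3 at 7 dpi. The under-10 subset held 9 and 10 of those UMIs at 3 dpi and 1 of each at 7 dpi, so that the log2 ratios of Mt1 and Mt2, -2.78 and -3.23 over all members, were -1.15 and -1.31 there on single UMIs.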

How the data were processed

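Single-cell RNA libraries were made from pooled tibial muscles. The authors deposited whole-number UMI counts per gene and cell for 32285 genes, without scaling per cell. The submitters' processing notes name Cell Ranger 5.0.0, Seurat 3.1.1 and mm10, and the methods name down-sampling, without stating whether the deposited counts precede it. Members, gene lists and tests were chosen with earlier results of these data known.

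Cells with at most 10% mitochondrial UMIs were gated on raw counts, with no other removal and no doublet removal in the main count. Scrublet in scanpy 1.11.5 scored doublets, and leaving out the highest 7.5% was an alternative. UMIs were summed per cell type and library (12 sums) and tested with edgeR 4.0.16 in R 4.3.3 (quasi-likelihood, TMM, filterByExpr, library as block, Benjamini-Hochberg adjustment), checked on simulated counts. Successive libraries were compared by CPM ratios for genes with at least 30 UMIs in both libraries together, or for named genes by the rule below, with exact conditional intervals and no test, and for counts of genes past 2-fold a count under 3 UMIs was set to 3. Shares have exact Clopper-Pearson intervals at 95%, covering counting error only. DESeq2 1.42.0, size factors, no filter, no block, thinning to 1000 or 2000 UMIs, and left-out libraries were alternatives. The under-10 subset was added after the data were seen.

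Named were, among genes past an adjusted p of 0.05 against both NK and T cells, the 10 with the largest smaller fold change of the 2 comparisons and the 6 with the most negative larger one, and between libraries the 5 largest ratios each way among genes with at least 30 UMIs in the library that held more UMIs of the gene and 3 in the other. Any gene of the 25 lists could be named, and some genes are not reported here. Other software was matplotlib 3.10.9, pandas 2.3.3, scipy 1.17.1 and numpy 2.4.6 under Python 3.11.15.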

Additional observations from a re-analysis of the deposited data

How the results depend on the processing

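The number of genes higher in ILC2 than in NK cells, 387, was 663 without the filter on low counts, 134 without the library block and between 182 and 389 when 1 library was left out. The number lower, 539, was 237 without the block, 1058 in Rora positive members without Col1a1, Lyz2 and Cd79a, 982 in the under-10 subset and between 315 and 407 with a library left out. Against T cells the 282 higher were 538 without the filter, 80 without the block and 137 to 263 with a library left out, and the 536 lower were 886, 187, 856 in the Rora positive members, 914 in the under-10 subset and 283 to 403. Among the fits with a library left out, the lowest counts came without the 3 dpi library (182, 137 and 283) or without the 1 dpi library (315). Of 332 alternative values for named fold changes against NK and T cells, 323 kept direction and call and 7 lost the call (all of genes at 0 in ILC2). Elane reversed with DESeq2 to 0.63 and 1.21, and the cause of this was not tested. The 332 leave out fits in which a gene did not pass the filter on low counts. Dach2, Cntn1, Olfr1259, Alox5 and Pcsk1 thus have no value in the Rora positive members. Olfr1259, Pcsk1 and Elane have none without the 1 dpi library, and Pcsk1 and Elane none without the 3 dpi library.

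The Uninjured share of all cells was 0.127% in the under-10 subset, 0.0621% after thinning and 0.0930% with at least 2 UMIs of Il1rl1, which also gave 0.170% at 3 dpi and 0.0174% at 7 dpi. Of genes compared between Uninjured and 1 dpi, 8.29% were lower by 2-fold in Rora positive members and 6.76% in the under-10 subset. From 1 to 3 dpi the share higher was 7.68% with each cell weighted equally, 2.29% thinned to 1000 UMIs, 2.06% in Rora positive members and 3.40% in the under-10 subset, and the share lower was 3.44% thinned. From 3 to 7 dpi the share higher was 16.02% with equal weights, 2.67% with size factors, 13.8% in Rora positive members and 8.41% in the under-10 subset, and the share lower 7.38% in Rora positive members. Log2 ratios reversed for H2-Aa in the under-10 subset (1.22 from Uninjured to 1 dpi and -0.56 from 1 to 3 dpi, on few UMIs, which the choice of cells sets) and in Rora positive members (-0.92 from 1 to 3 dpi), and in Rora positive members also for Cdk6 (0.042) from 1 to 3 dpi and, with 1 such cell at 7 dpi, for Mt1 (0.87). A ratio was not computed where a library had no UMI of the gene. No paired analysis was possible beyond the library block because each time point is 1 library. The 10 cells at 7 dpi limit every value of that library.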

Other observations

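Il33 and Tslp, which encode ligands of ILC2 receptors, were detected in mesenchymal cells. Il33 had a UMI in 44.5% of Uninjured mesenchymal cells (Pdgfra and Col1a1 positive, Ptprc negative), 39.9% at 1 dpi, 46.3% at 3 dpi and 21.5% at 7 dpi, or 152, 130, 184 and 50.7 CPM. Tslp, the ligand of Crlf2, was detected in 25.6%, 13.6%, 10.9% and 3.62% of the same cells, or 32.6, 17.2, 13.6 and 5.28 CPM. Il25 had 5 UMIs in 21884 mesenchymal cells. Other listed ligands were found in lymphocytes. Il2 had a UMI in 7 ILC2 (7.22%), 38 NK cells (2.19%) and 57 T cells (2.28%), and Icosl in 10 (10.3%), 49 (2.83%) and 48 (1.92%). The median UMIs per cell also decreased over the libraries, and the part of depth in the shares was not tested. Endothelial cells had Il33 in 25 of 350 cells and macrophages in 45 of 984.

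Other cells carried Il1rl1 as well. Of 74 regulatory T cells, gated by Foxp3 with Cd3e or Cd3g, 22 had Il1rl1 (29.7%), 48 had Gata3 and 30 had Areg, while 1 had Calca. Of 19 mast cells 12 had Il1rl1, and none had Gata3 or Areg.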
